A study of Mus musculus with 6 samples.

Results

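Transcripts of 31 T cell genes were followed in macrophage preparations from malignant pleural effusion (MPE), the fluid that collects around the lung when a tumor spreads to the pleura. The members were the rows of the gene table whose symbol was on a list of T cell receptor chains, coreceptors, signaling adaptors, surface receptors, costimulatory and checkpoint receptors and transcription factors, and all 31 were found among 23302 genes. The 6 libraries came from 3 WT and 3 IL-10−/− samples of C57BL/6 mice, collected 10 days after tumor cells of the mouse colon adenocarcinoma line MC38 had been placed in the pleural cavity. Mononuclear cells were first taken from an effusion on a density gradient, and macrophages were then pulled out with microbeads against F4/80, a surface protein of mouse macrophages. According to the study's methods the mice were matched for sex, weight and age and their suppliers were Vital River for WT and Jackson Laboratory for IL-10−/−, so that supplier and genotype cannot be told apart. The labels do not say whether a library held 1 mouse or several, and the p-values therefore measure the spread between these libraries, which may be partly technical.

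Il10, the targeted gene, stood at 6.43, 33.3 and 7.33 FPKM (fragment counts scaled by transcript length and library size) in the WT libraries, against 59.2, 62.0 and 42.4 FPKM where the label reads IL-10−/−. Its transcript was thus higher where the label says the gene is lacking (log2 difference 2.09, limma adjusted p = 0.14), and these libraries are called knockout-labelled below, by their label alone. Macrophage markers were abundant in every library, with Csf1r, the receptor of macrophage colony-stimulating factor, at 141 to 179 FPKM in the WT libraries and 196 to 216 FPKM in the knockout-labelled libraries. Of 6 genes listed for neutrophils 5 were called lower in the knockout-labelled libraries, where 0.482% of all genes tested were called lower. They summed to 2639 to 4355 FPKM in the WT libraries and 396 to 1077 FPKM in the others. S100a8 and S100a9 made up most of each sum, and the study reports S100A9 in MPE macrophages and names monocytes as another source. Ly6g was at 1.38, 3.24 and 2.45 FPKM and at 0.701, 0.664 and 0.802 FPKM, and was not called (limma adjusted p = 0.15). Replicate 1 of each group held Xist, the transcript of the inactive X chromosome (52.3 FPKM in WT and 25.0 FPKM in the knockout-labelled library), and almost no Ddx3y, a Y-linked gene, whereas the other 4 libraries held Ddx3y at 20.5 to 32.5 FPKM and almost no Xist. Differences of the members are also given without knockout-labelled replicate 1, which held the highest level of 27 of the 31 members. WT replicate 1 stays in these values, so they do not balance libraries with Xist against those with Ddx3y. The log2 difference of Ddx3y itself was −0.34 with all libraries and 1.15 without knockout-labelled replicate 1. The depth behind each value is unknown from FPKM, and members near 1 FPKM carry the most counting error.

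T cells recognise antigen through a receptor whose variable chains are paired with the CD3 and zeta chains, and these carry the signal into the cell. The coreceptors CD4 and CD8 bind MHC class II and class I molecules and bring the kinase LCK to the receptor, after which ZAP70 phosphorylates the adaptor LAT. In effusions with tumor cells, helper, cytotoxic and regulatory T cells are found beside macrophages, and receptors such as CTLA-4, PD-1 and TIGIT hold their activation back.

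T cell transcripts were present at low to moderate levels in all 6 libraries, and they were highest in a single one. Averaged over the 6 libraries, levels ran from 0.705 FPKM for Foxp3 to 16.8 FPKM for Cd2, with a median of 4.87 FPKM over the 31 genes. The sum of their FPKM was 133, 134 and 184 for WT, against 330, 157 and 154 for the knockout-labelled libraries (replicates 1, 2 and 3). Knockout-labelled replicate 1 held the highest level of 27 of the 31 genes, while it held the highest level of 15.9% of all 11838 genes tested. In this library the members lay 1.07-fold to 4.02-fold above the mean of the other 5 libraries, with a median of 2.21-fold against 0.972-fold over all genes tested. Of the other 4 members, Lef1, Tigit and Ubash3a were highest in WT replicate 3 and Foxp3 in WT replicate 1. Among the WT libraries, replicate 3 was highest in 23 of the 31 genes. In a bulk sample, more T cells and more RNA per T cell cannot be told apart, and the part of other cell types was not tested.

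**Figure D1:**
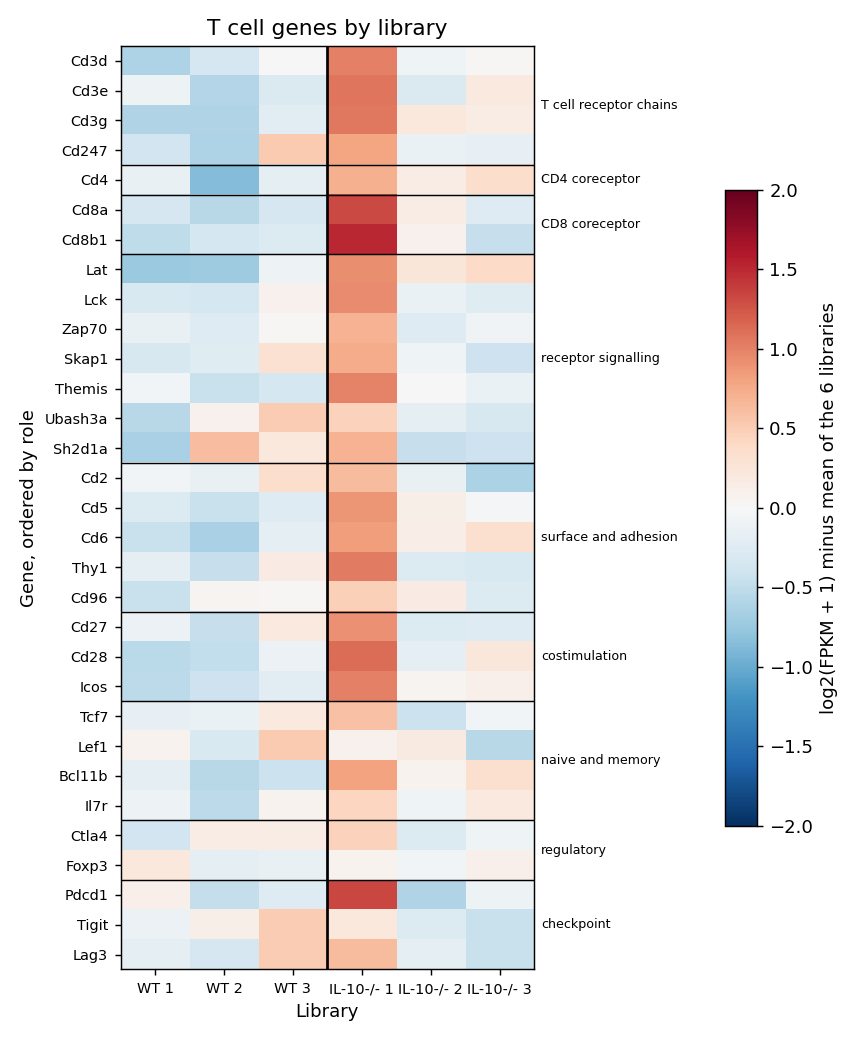
Color gives log2(FPKM + 1) of each of the 31 T cell genes in each library minus the mean of that gene over the 6 libraries, with genes grouped by role and the groups named by their labels. The column of knockout-labelled replicate 1 is the reddest in 27 of 31 rows.

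Differences between the groups were taken in log2(FPKM + 1), knockout-labelled minus WT, and tested with limma across the 11838 genes that reached 1 FPKM in 3 libraries or more, with Benjamini-Hochberg adjustment over all of them. Of the 31 members 30 entered this fit, and Foxp3 lay below 1 FPKM in every library. Bcl11b entered only through the knockout-labelled libraries, since no WT library reached 1 FPKM. At an adjusted p under 0.05 from limma, 0 of the 30 members were called, where 1.09% of all genes tested were called in either direction. At an unadjusted p under 0.05, 8 members were higher in the knockout-labelled libraries (Lat, Cd6, Cd3g, Bcl11b, Cd4, Icos, Cd5 and Cd28) and 0 lower, where 5.16% of all genes tested were higher at this threshold. Lat was the 1 member that also had a fold change of 2, a rule by which 0.887% of all genes tested were higher and 1.29% lower.

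Over all 31 members, without the filter, 26 had a log2 difference above 0 and the median was 0.37, where 49.5% of all genes tested lay above 0 with a median of −0.0025. Without knockout-labelled replicate 1, 17 of 31 lay above 0 and the median was 0.06. In 8 members all knockout-labelled libraries lay above all WT libraries (Cd3g, Cd4, Cd8a, Lat, Cd5, Cd6, Icos and Bcl11b), where 7.8% of all genes tested had this order, and the opposite order was seen in 0 members and in 7.59% of all genes tested. For each of these 8 the exact two-sided permutation test gave p = 0.1, the smallest that 3 against 3 libraries allow. Bcl11b is counted here although it passed the filter only through the group where it is higher.

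**Figure D2:**
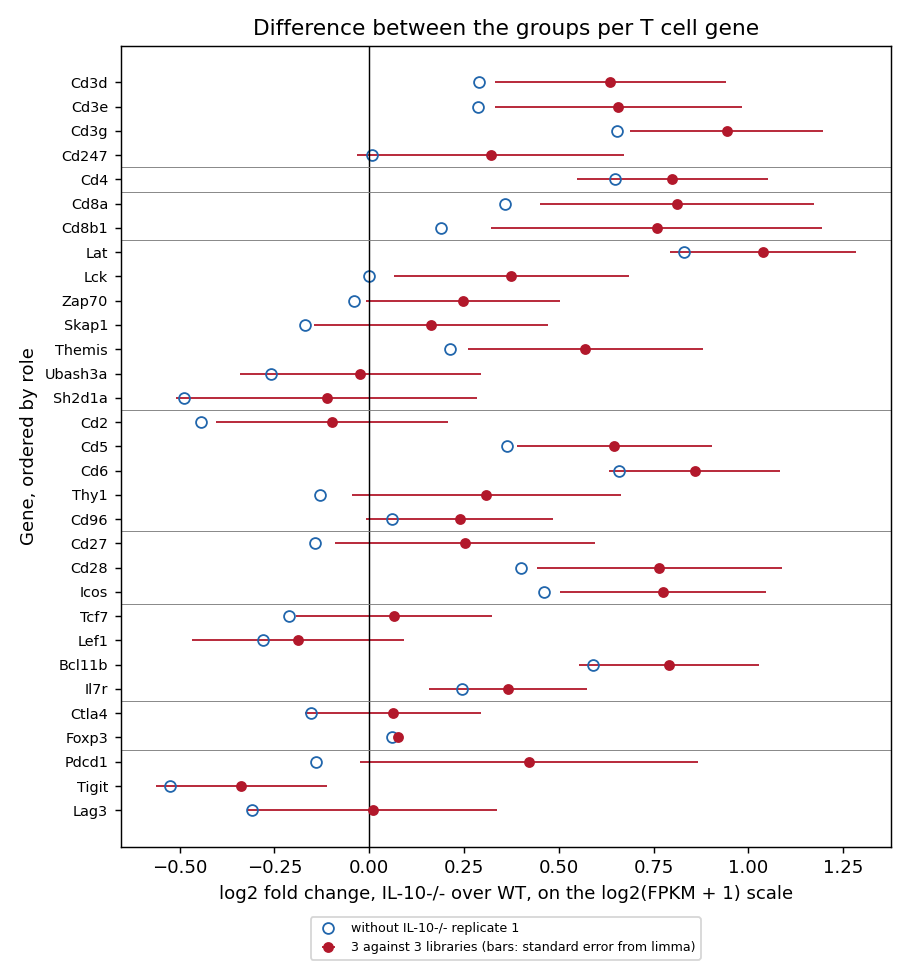
Filled points give the log2 difference of each T cell gene (knockout-labelled libraries over WT, on the log2(FPKM + 1) scale) with the standard error from limma, and open points the same difference without knockout-labelled replicate 1. Foxp3 was not fitted and has no error bar, and the open points lie left of the filled points for all 31 genes, from 0.83 for Lat down to −0.52 for Tigit.

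The chains of the T cell receptor complex were higher in the knockout-labelled libraries on average, and Cd3g was separated between the groups. Cd3g, which encodes the gamma chain of CD3 (chromosome 9 of GRCm38, 44969572 to 44980431), stood at 9.23, 9.19 and 12.3 FPKM in the WT libraries, against 31.02, 16.9 and 16.1 FPKM in the knockout-labelled libraries. All of the latter exceeded the highest WT value, with replicate 1 far above replicates 2 and 3. Cd3g averaged 10.2 ± 1.78 FPKM in WT and 21.4 ± 8.37 FPKM in knockout-labelled libraries (mean ± SD, n = 3 each), a log2 difference of 0.94 (standard error 0.25, limma adjusted p = 0.17), and of 0.65 without knockout-labelled replicate 1.

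Cd3d, the delta chain gene (44981793 to 44987052), lies beside Cd3g in the opposite orientation. It was at 4.20, 5.31 and 6.999 FPKM in the WT libraries, against 15.1, 6.52 and 7.14 FPKM in the knockout-labelled libraries. Cd3e, the epsilon chain gene of the same cluster (44998743 to 45009590), was at 3.21, 2.01 and 2.69 FPKM in the WT libraries, against 8.47, 2.72 and 4.20 FPKM in the knockout-labelled libraries. For both genes the groups overlapped, because a knockout-labelled library other than replicate 1 lay within the WT range. Their log2 differences were 0.64 and 0.66 (limma adjusted p = 0.52 and 0.55), and 0.29 for each without knockout-labelled replicate 1.

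Cd247, which encodes the zeta chain (chromosome 1, 165788681 to 165877277), was at 4.10, 3.38 and 8.58 FPKM in the WT libraries, against 10.5, 5.07 and 4.96 FPKM in the knockout-labelled libraries. WT replicate 3 exceeded both lower libraries of the other group, and the log2 difference was 0.32 (limma adjusted p = 0.85), or 0.0083 without knockout-labelled replicate 1. In the GENCODE annotation of the same build 56.4% of the exon bases of Cd247 are shared with Pou2f1 on the other strand, and whether the authors counted by strand is not stated in the sources read. Pou2f1 itself was at 2.29 to 14.8 FPKM, so the level of Cd247 is uncertain.

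The constant region genes of the alpha and beta chains, which were not members, overlapped between the groups. Trac, of the alpha chain, was at 8.46, 8.70 and 14.5 FPKM in the WT libraries, against 20.6, 9.08 and 7.76 FPKM in the knockout-labelled libraries (log2 difference 0.14, limma adjusted p = 0.95, and −0.26 without knockout-labelled replicate 1). Trbc2, of the beta chain, was at 14.6, 20.8 and 31.9 FPKM and at 55.8, 32.8 and 27.4 FPKM (log2 difference 0.76, limma adjusted p = 0.45, and 0.47 without that library), and its near-identical neighbor Trbc1 makes the split of reads between them uncertain. Both were highest in knockout-labelled replicate 1.

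Promoter windows are shown for 3 members that were highest in that library and for Tigit, which was highest in WT replicate 3. They come from RefSeq on GRCm38.p6, each from 250 bases before to 50 bases after the start, on the strand of the gene, and lie at chr9:44981536-44981835 (Cd3d, plus strand), chr9:44980382-44980681 (Cd3g, minus strand), chr7:126369519-126369818 (Lat, minus strand) and chr16:43664135-43664434 (Tigit, minus strand). Capitals mark, on either strand, CTTTGA (bound by the TCF/LEF proteins that Tcf7 and Lef1 encode), TGTGGT (bound by RUNX proteins) and AGGAAG (bound by ETS proteins), and no 2 of these matches overlap.
Cd3d: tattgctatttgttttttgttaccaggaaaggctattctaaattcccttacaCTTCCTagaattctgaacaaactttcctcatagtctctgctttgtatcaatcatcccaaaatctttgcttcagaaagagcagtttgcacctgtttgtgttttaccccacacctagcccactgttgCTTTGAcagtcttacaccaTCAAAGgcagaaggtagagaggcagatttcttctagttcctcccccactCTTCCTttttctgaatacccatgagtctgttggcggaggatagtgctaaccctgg
Cd3g: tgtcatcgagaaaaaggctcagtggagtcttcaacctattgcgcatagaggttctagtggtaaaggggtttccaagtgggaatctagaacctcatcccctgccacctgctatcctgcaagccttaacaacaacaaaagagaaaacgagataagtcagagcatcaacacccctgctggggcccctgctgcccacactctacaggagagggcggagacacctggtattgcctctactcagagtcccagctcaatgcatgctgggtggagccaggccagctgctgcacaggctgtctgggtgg
Lat: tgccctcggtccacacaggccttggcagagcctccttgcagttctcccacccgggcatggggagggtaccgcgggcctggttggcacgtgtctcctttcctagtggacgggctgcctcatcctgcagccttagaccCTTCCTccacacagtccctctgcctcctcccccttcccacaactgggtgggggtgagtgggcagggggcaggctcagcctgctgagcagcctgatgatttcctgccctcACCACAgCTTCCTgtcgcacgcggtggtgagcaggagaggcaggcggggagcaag
Tigit: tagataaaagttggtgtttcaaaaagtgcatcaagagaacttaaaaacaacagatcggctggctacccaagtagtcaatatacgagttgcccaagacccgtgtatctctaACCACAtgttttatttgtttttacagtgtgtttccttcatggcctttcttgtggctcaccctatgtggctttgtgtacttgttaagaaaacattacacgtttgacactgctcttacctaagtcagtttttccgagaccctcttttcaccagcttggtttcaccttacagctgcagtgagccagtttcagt
The Cd3d window held 2 matches to the TCF/LEF letters and 2 to the ETS letters, and the Cd3g window, whose start lies 1355 bases away, held none of the letters searched. The Lat window held 1 match to the RUNX letters and 2 to the ETS letters, and the Tigit window 1 to the RUNX letters. Of the 31 members 21 had a window, 30 windows in all counting alternative starts, of which 23.3% held the TCF/LEF letters, 20.0% the RUNX letters and 15 of 30 the ETS letters, where 16.0%, 16.8% and 35.4% of all 32851 windows did.

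Both coreceptors were higher in the knockout-labelled libraries on average, CD4 more evenly than CD8. Cd4, which marks helper and regulatory T cells and binds MHC class II (chromosome 6, 124864692 to 124888221), was at 1.90, 0.755 and 1.83 FPKM in the WT libraries, against 4.23, 2.54 and 3.10 FPKM in the knockout-labelled libraries. The groups did not overlap, and the log2 difference was 0.80 (standard error 0.25, limma adjusted p = 0.25) and still 0.65 without knockout-labelled replicate 1.

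Cd8a, one chain of the coreceptor of cytotoxic T cells (chromosome 6, 71373427 to 71379173), was at 3.40, 2.82 and 3.44 FPKM in the WT libraries, against 12.9, 5.20 and 3.69 FPKM in the knockout-labelled libraries. Its neighbor Cd8b1, the other chain (71322788 to 71337494), was at 3.89, 4.45 and 4.76 FPKM and at 18.9, 6.37 and 4.07 FPKM. Here knockout-labelled replicate 1 stood far above the rest, replicate 2 somewhat above the WT libraries and replicate 3 at their level. The log2 differences were 0.81 (standard error 0.36, limma adjusted p = 0.48) for Cd8a and 0.76 (standard error 0.44, limma adjusted p = 0.64) for Cd8b1, and they were 0.36 and 0.19 without knockout-labelled replicate 1. With values of 3.48-fold and 4.02-fold for Cd8a and Cd8b1 over the mean of the other 5 libraries, CD8 transcripts stood out more in that library than Cd4 did (2.09-fold).

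Within a library the ratio of Cd8a to Cd4 in FPKM was 1.79, 3.73 and 1.88 in the WT libraries and 3.05, 2.05 and 1.19 in the knockout-labelled libraries, so the groups overlapped. Cd8b1 over Cd8a was steadier, at 1.15 to 1.58 in the WT libraries and 1.102 to 1.47 in the others. The mean of Cd8a and Cd8b1 minus Cd4, in log2(FPKM + 1), was 0.97 ± 0.37 in the WT libraries and 0.95 ± 0.71 in the knockout-labelled libraries (SD, n = 3 each). These near-equal means rested on knockout-labelled replicate 1, and without it the difference was −0.37. The balance of CD8 to CD4 transcripts varied between libraries within each group, and the groups overlapped.

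**Figure D3:**
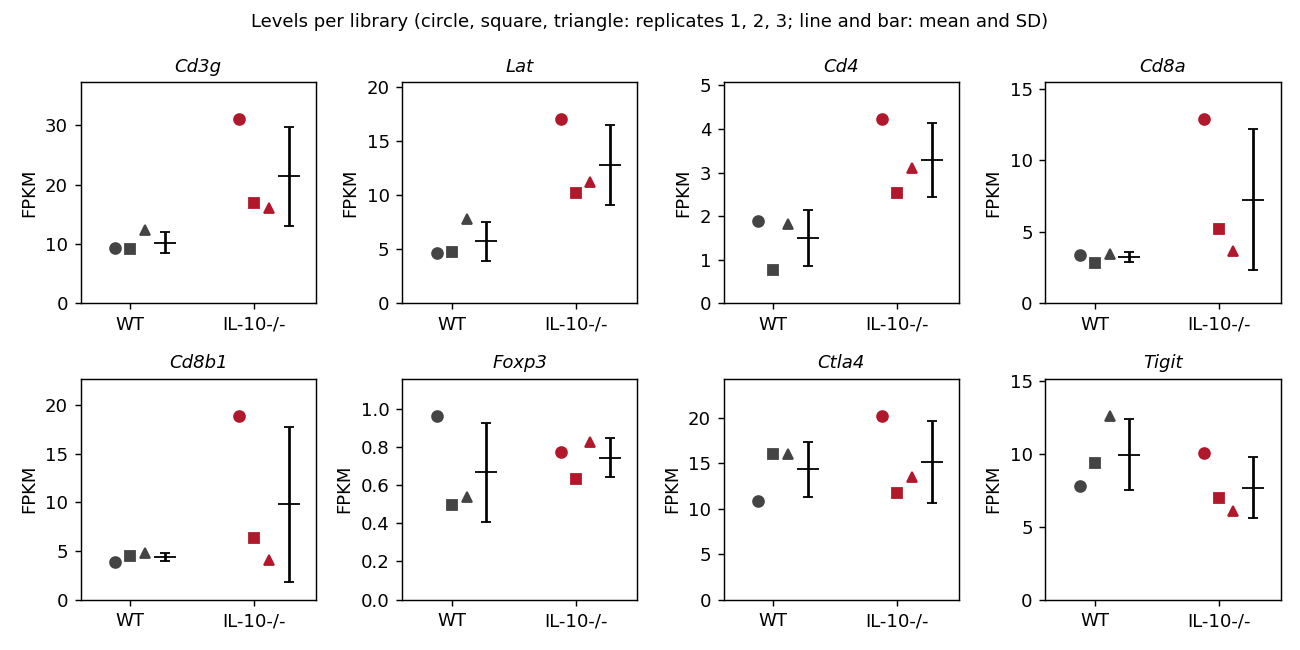
Each panel gives the FPKM of 1 gene in the 3 WT libraries (dark) and in the 3 knockout-labelled libraries (red), with the mean and SD of each group beside them. Cd3g, Lat, Cd4 and Cd8a do not overlap between the groups, Cd8b1, Foxp3, Ctla4 and Tigit do, and the circle of knockout-labelled replicate 1 is the highest point in 6 of the 8 panels.

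Among the genes of receptor signaling, Lat differed most, and 6 of the 7 were highest in knockout-labelled replicate 1. Lat, the membrane adaptor on which the receptor's signal is assembled (chromosome 7, 126363824 to 126369570), was at 4.61, 4.75 and 7.79 FPKM in the WT libraries, against 17.0, 10.2 and 11.2 FPKM in the knockout-labelled libraries. The groups were separated with all 3 of the latter above the highest WT library. The log2 difference was 1.04 (standard error 0.24, limma adjusted p = 0.12), the largest of the 31 members on the log2(FPKM + 1) scale. With 0.1 added to FPKM in place of 1, Bcl11b (1.47) and Cd4 (1.16) exceeded Lat (1.15). On the first scale Lat differed by 0.83 to 1.25 when any 1 library was left out.

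The kinase genes differed less. Lck, the kinase bound to the coreceptors, was at 8.42, 8.11 and 11.4 FPKM in the WT libraries, against 21.3, 9.61 and 8.78 FPKM in the knockout-labelled libraries, with a log2 difference of 0.38 (limma adjusted p = 0.78). Zap70, the kinase that binds the phosphorylated CD3 and zeta chains, was at 3.18, 2.88 and 3.71 FPKM and at 6.49, 2.85 and 3.42 FPKM, with a log2 difference of 0.25 (limma adjusted p = 0.84). Outside replicate 1, the levels of both kinases in the knockout-labelled libraries lay within or just below the WT range, and their log2 differences without it were −0.0011 and −0.04.

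Skap1, an adaptor that links the receptor to integrins, and Themis, a regulator of receptor signaling in thymocytes, had log2 differences of 0.16 and 0.57 (limma adjusted p = 0.93 and 0.61), and of −0.17 and 0.21 without knockout-labelled replicate 1. Themis reached 1 FPKM in 1 WT library and in all knockout-labelled libraries. Sh2d1a, the adaptor SAP of the SLAM receptors, which NK cells use too, was at 2.48, 7.38 and 5.36 FPKM in the WT libraries, against 7.90, 2.99 and 3.14 FPKM in the others. Ubash3a, a negative regulator of receptor signaling, was at 0.721, 1.70 and 2.59 FPKM and at 2.49, 1.25 and 1.03 FPKM. These last genes showed no common order (log2 differences −0.11 and −0.02, limma adjusted p = 0.96 and 0.99, or −0.49 and −0.26 without that library), and in both the lowest WT library was replicate 1. Sh2d1a shares 26.6% of its exon bases with Tenm1 on the other strand, which was at no more than 0.0034 FPKM in any library.

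Surface receptors fell into those that were higher in all knockout-labelled libraries and those that were not. Cd6, a scavenger-type receptor of T cells that binds ALCAM (chromosome 19, 10789341 to 10830058), was at 1.99, 1.59 and 2.57 FPKM in the WT libraries, against 6.25, 3.46 and 4.11 FPKM in the knockout-labelled libraries. Its neighbor Cd5, an inhibitory receptor of T cells and of a subset of B cells (10718143 to 10738974), was at 1.37, 1.11 and 1.38 FPKM and at 4.29, 2.10 and 1.78 FPKM. Both were separated, with log2 differences of 0.86 (standard error 0.23, limma adjusted p = 0.16) and 0.65 (standard error 0.26, limma adjusted p = 0.40), and of 0.66 and 0.36 without knockout-labelled replicate 1.

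Cd2, an adhesion receptor of T and NK cells and the member with the highest mean over the 6 libraries, was at 15.5, 14.5 and 20.9 FPKM in the WT libraries, against 25.7, 14.4 and 10.1 FPKM in the knockout-labelled libraries. Thy1, a surface glycoprotein of T cells and of some stromal and innate lymphoid cells, was at 12.6, 10.2 and 16.3 FPKM and at 30.4, 11.8 and 11.5 FPKM. Cd96, a nectin-binding receptor of T and NK cells, was at 1.08, 1.95 and 1.90 FPKM and at 2.96, 2.17 and 1.34 FPKM. In all 3 the groups overlapped, and the log2 differences were −0.10, 0.31 and 0.24 (limma adjusted p = 0.96, 0.85 and 0.84). They were −0.44, −0.13 and 0.06 without knockout-labelled replicate 1.

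The costimulatory receptors Cd28 and Icos, which lie together with Ctla4 on chromosome 1 (60716800 to 61000320), were higher in the knockout-labelled libraries on average. Icos, the inducible receptor of activated T cells, was at 1.62, 1.82 and 2.20 FPKM in the WT libraries, against 6.59, 2.88 and 3.03 FPKM in the knockout-labelled libraries. Cd28, which gives the second signal to resting T cells, was at 1.19, 1.26 and 1.91 FPKM and at 5.86, 1.77 and 2.70 FPKM. Icos was separated and Cd28 was not, since replicate 2 of the knockout-labelled libraries lay below WT replicate 3. The log2 differences were 0.78 (standard error 0.27, limma adjusted p = 0.32) and 0.77 (standard error 0.32, limma adjusted p = 0.44), and 0.46 and 0.40 without knockout-labelled replicate 1. Cd27, a TNF receptor family member of naive and memory T cells and of NK cells, was at 2.02, 1.36 and 2.73 FPKM and at 5.14, 1.70 and 1.71 FPKM, with a log2 difference of 0.25 (limma adjusted p = 0.88) that turned to −0.14 without knockout-labelled replicate 1.

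Genes of naive and memory T cells had no common direction. Tcf7, the transcription factor TCF-1 of naive and stem-like T cells, was at 5.91, 6.09 and 7.85 FPKM in the WT libraries, against 10.6, 4.75 and 6.43 FPKM in the knockout-labelled libraries (log2 difference 0.06, limma adjusted p = 0.96). Lef1, its close relative, was at 2.08, 1.36 and 3.19 FPKM and at 2.12, 2.33 and 0.989 FPKM (log2 difference −0.19, limma adjusted p = 0.90). Il7r, the interleukin 7 receptor chain on which resting T cells depend, was at 4.90, 3.43 and 5.67 FPKM and at 7.53, 5.01 and 6.28 FPKM (log2 difference 0.37, limma adjusted p = 0.64). The groups overlapped in all 3, and Lef1 was the member least raised in knockout-labelled replicate 1 (1.07-fold over the mean of the other 5). Without that library the differences of Tcf7, Lef1 and Il7r were −0.21, −0.28 and 0.24. Bcl11b, a transcription factor needed for T cell identity (chromosome 12, 107910403 to 108003602), was at 0.768, 0.371 and 0.494 FPKM in the WT libraries, against 2.51, 1.12 and 1.52 FPKM in the knockout-labelled libraries. It was separated, with a log2 difference of 0.79 (standard error 0.24, limma adjusted p = 0.22) and of 0.59 without knockout-labelled replicate 1. Levels this low carry much counting error, and Bcl11b passed the filter only through the knockout-labelled libraries.

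Regulatory and checkpoint genes overlapped between the groups without exception. Foxp3, the transcription factor of regulatory T cells, was at 0.963, 0.497 and 0.540 FPKM in the WT libraries, against 0.775, 0.632 and 0.825 FPKM in the knockout-labelled libraries. The groups overlapped, the log2 difference without the filter was 0.07 (limma adjusted p = 0.89), and knockout-labelled replicate 1 was not the highest. Exons of Foxp3 overlap those of other genes on both strands, among them Flicr (18.6% of its exon bases) and Ccdc22 (12.9%), the latter at 11.8 to 14.0 FPKM, so that levels under 1 FPKM are uncertain. Foxp3 over Cd4 in FPKM was 0.508, 0.658 and 0.295 in the WT libraries and 0.183, 0.249 and 0.266 in the knockout-labelled libraries. It was lower in all 3 of the latter, a ratio of low levels that was not tested. Cd4 itself was higher in all 3, so the ratio is no result about Foxp3 alone. Ctla4, an inhibitory receptor that regulatory T cells carry and other T cells gain on activation, was at 10.9, 16.0 and 16.1 FPKM and at 20.3, 11.7 and 13.5 FPKM (log2 difference 0.06, limma adjusted p = 0.96, and −0.15 without knockout-labelled replicate 1).

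Pdcd1, the gene of the checkpoint receptor PD-1, was at 5.20, 3.14 and 3.84 FPKM in the WT libraries, against 13.6, 2.79 and 4.41 FPKM in the knockout-labelled libraries. Its high value was in replicate 1 alone, the log2 difference was 0.42 (standard error 0.45, limma adjusted p = 0.84), and it was −0.14 without that library. Tigit, a checkpoint receptor of regulatory and exhausted T cells and of NK cells, was at 7.83, 9.40 and 12.6 FPKM and at 10.1, 6.96 and 6.06 FPKM. It had the lowest log2 difference of the 31 members, −0.34 (standard error 0.23, limma adjusted p = 0.71), and this was −0.52 to −0.17 when any 1 library was left out. Lag3, which binds MHC class II and is also found on NK cells, was at 1.80, 1.52 and 3.48 FPKM and at 3.94, 1.79 and 1.33 FPKM (log2 difference 0.0089, limma adjusted p = 1.0, and −0.31 without that library).

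To compare the classes within each library, members were set against the mean of Cd3d, Cd3e and Cd3g in log2(FPKM + 1), which is a description with a shared reference and no test. Tigit stood 0.54 to 0.90 above the CD3 genes in the WT libraries and between −0.62 and 0.0027 in the knockout-labelled libraries. Ctla4 stood 0.97 to 1.56 above them in the WT libraries and 0.33 to 0.69 in the others. Cd4, Cd8a, Cd8b1, Cd28 and Icos had group means that differed by 0.05, 0.07, 0.01, 0.02 and 0.03, or by 0.24, −0.05, −0.22, −0.01 and 0.05 without knockout-labelled replicate 1. The near-equal means of Cd4 and Cd8b1 thus rested on that library, and Cd8b1 ran from −0.83 to 0.23 across the knockout-labelled libraries. In 13 of 28 members all knockout-labelled libraries lay lower relative to the CD3 genes than all WT libraries, among them Tigit, Ctla4, Foxp3, Lag3 and Tcf7, and in 0 members higher. The same was seen in 46.9% of all genes tested, since the CD3 genes themselves were higher in those libraries, so that the count of 13 is no result about the members.

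**Figure D4:**
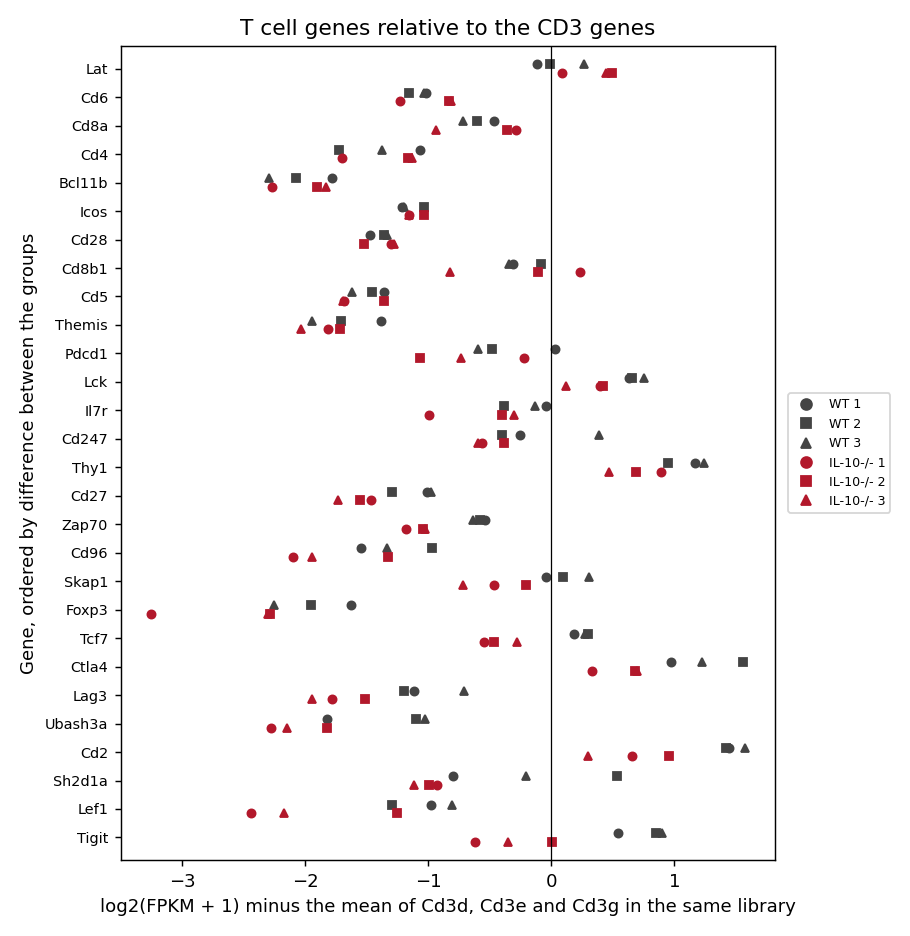
Points give log2(FPKM + 1) of each of 28 T cell genes minus the mean of Cd3d, Cd3e and Cd3g in the same library, for WT libraries (dark) and knockout-labelled libraries (red). At the bottom Tigit lies 1.08 lower on average in the knockout-labelled libraries, and at the top Lat lies 0.29 higher.

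The members were also compared within each of the 2 kinds of library, and a limma term for the difference between the kinds had an adjusted p under 0.05 in 0 members and in 0.00845% of all genes tested (1 of 11838). Between the libraries with Xist (replicate 1 of each group, 1 against 1, with no test), 30 of 31 members were higher in the one labelled IL-10−/− and the median difference was 1.06 on the log2(FPKM + 1) scale, where 48.2% of all genes tested were higher. Among the libraries with Y-linked transcripts (replicates 2 and 3 of each group), 16 of 31 members were higher in those labelled IL-10−/− and the median difference was 0.02, where 50.4% of all genes tested were higher. Cd4, Lat, Bcl11b, Cd6 and Cd3g differed there by 0.77, 0.72, 0.69, 0.65 and 0.59, an order already set by their separation over all 6 libraries. In a fit of these 4 libraries alone 0 members had an adjusted p under 0.05 from limma. The part of the kind of library in the levels of replicate 1 was not tested, since each group holds 1 library with Xist.

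Log2 differences of NK and B cell markers were mostly below 0, although none was called and the NK cell sums overlapped between the groups. Of 12 NK cell genes, all tested, 10 lay below 0 with a median log2 difference of −0.55 (−0.90 without knockout-labelled replicate 1) and 0 were called, and their FPKM summed to 151, 245 and 303 in the WT libraries, against 270, 151 and 144 in the knockout-labelled libraries. Klra8, an NK receptor, was at 5.94, 9.42 and 9.92 FPKM and at 3.79, 1.43 and 1.58 FPKM (log2 difference −1.57, limma adjusted p = 0.060), and Klrb1c, the gene of NK1.1, had a log2 difference of −0.84 (limma adjusted p = 0.34). Of 8 B cell genes 7 were tested, all below 0 with a median of −0.87 and 0 called, and their FPKM summed to 46.7 to 51.8 and 13.6 to 34.8. Cd79a, a chain of the B cell receptor, had a log2 difference of −1.35 (limma adjusted p = 0.13), and Cd22, an inhibitory receptor of B cells, of −0.93 (limma adjusted p = 0.11). No defining marker of NK or B cells was at 0 in any library. Several members are also expressed by NK cells, among them Cd2, Cd96, Tigit, Sh2d1a, Cd27 and Lag3, and the part of NK cells in their levels was not tested.

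**Figure D5:**
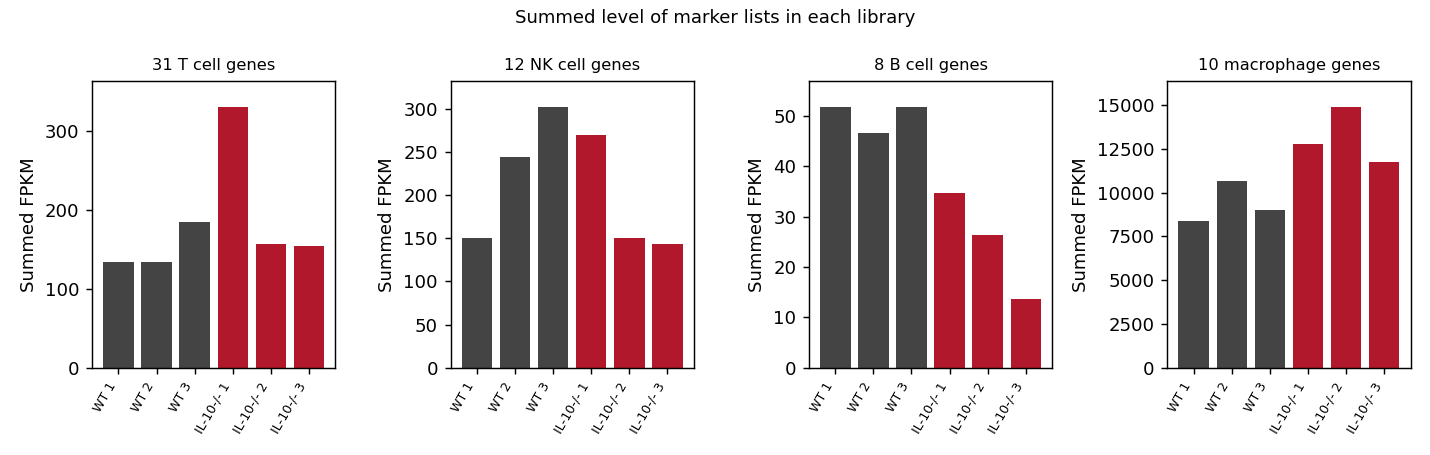
Bars give the summed FPKM of 31 T cell, 12 NK cell, 8 B cell and 10 macrophage genes in each library, WT in dark and knockout-labelled libraries in red, each panel with its own axis from 0. The T cell sum is highest in knockout-labelled replicate 1 (330) and the NK cell sum in WT replicate 3 (303). The B cell sums of the WT libraries all lie above those of the others, and the macrophage sums all lie below. A sum is weighted to the most abundant genes of its list. Of the 10 macrophage genes 9 had a log2 difference above 0, with a median of 0.14, and 0 were called.

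Other T cell genes, which were not members, were divided. Of 39 listed genes 37 were in the table and 28 were tested, of which 15 lay above and 13 below 0, with a median log2 difference of 0.17 (−0.02 without knockout-labelled replicate 1) and 0 called. That library was the highest in 21 of the 37 genes. Sit1, an adaptor that limits receptor signaling, was at 1.06, 1.00 and 0.884 FPKM in the WT libraries, against 2.21, 1.95 and 1.83 FPKM in the knockout-labelled libraries (log2 difference 0.60, limma adjusted p = 0.19).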

How the data were processed

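RNA of F4/80-selected MPE macrophages from 3 WT and 3 IL-10−/− samples was sequenced as paired ends after poly(A) selection and a NEBNext Ultra preparation. The authors deposited 1 table of FPKM per gene and library, on the genome build GRCm38 by the submitters' processing notes. How reads were aligned and counted, with which annotation and strand setting, was not given in the sources used here, so overlapping genes stay uncertain. The deposited table also holds the authors' own fold changes, p-values and marks, which were not used. Samples were grouped by the genotype and number in their labels. The 11838 genes that reached 1 FPKM in 3 or more libraries entered a test with limma 3.58.1 (R 4.3.3) on log2(FPKM + 1) with a mean-variance trend, and two-sided p-values were adjusted by Benjamini and Hochberg's method. Fold changes on this scale understate the change of low genes. Depth per library is unknown, so precision rests on the spread between libraries. The code was tested on simulated data. The members and lists were chosen with earlier results of these data known. Named genes were all 31 members, Il10, and the 2 genes with the smallest p of each other list, and Trac, Trbc1, Trbc2, Mki67, Gzma, Gzmb, Tcrg-C1, Trdc, Il17a, the overlapping genes and Cxcr6 were added after their values were seen, as were the settings on Y-linked transcripts. One gene chosen by this rule is not reported here. Gene overlaps came from GENCODE mouse release 21, and promoters from RefSeq.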

Additional observations from a re-analysis of the deposited data

Results flagged for a closer look

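For 6 members the difference between the groups pointed one way between the libraries with Xist (1 of each group) and the opposite way, in every library, among those with Y-linked transcripts (2 of each group). Of the 30 tested members 16.7% (5) showed this pattern, against 19.2% of all 11838 genes tested, so the count is no result about the members. These kinds of library were read from the data and are not groups of the study. Differences are those of the knockout-labelled libraries minus WT in log2(FPKM + 1). Among the libraries with Y-linked transcripts the difference was −0.49 for Cd2, −0.33 for Ctla4, −0.55 for Ubash3a, −0.84 for Sh2d1a, −0.67 for Tigit and 0.18 for Foxp3. Between the libraries with Xist it was 0.69 for Cd2, 0.84 for Ctla4, 1.02 for Ubash3a, 1.35 for Sh2d1a, 0.33 for Tigit and −0.15 for Foxp3. The test of the difference itself, an interaction term in limma, gave adjusted p = 0.55 for Cd2 and Tigit and 0.54 for Ctla4, Ubash3a and Sh2d1a. Foxp3 was not tested, being under the filter. The term had an adjusted p under 0.05 in 1 of the 11838 genes tested.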

How the results depend on the processing

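Every setting tried left 0 members called, with adjusted p from limma never below 0.084 (Lat). Of 493 values of single members under the alternatives, 453 kept their direction and 40 turned it, and 15 of the 30 members kept it throughout. The median log2 difference of the tested members was 0.37 and ran from 0.03 to 0.56 with 1 library left out. The number above 0, 25 of 30, was 16 (without knockout-labelled replicate 1) to 29 with 1 library left out, 10 of 13 with a filter at 5 FPKM, which tests fewer members, and 15 among the libraries with Y-linked transcripts, where the median was −0.02. The number lower relative to CD3, 13, was 13 to 17 with 1 library left out. Over all genes, 72 were higher and 57 lower. These counts became 22 and 10 without a filter, 248 and 234 with array weights, 30 and 23 among the libraries with Y-linked transcripts, and 26 to 78 and 14 to 62 with 1 library left out (fewest without WT replicate 3). With the replicate number as a block they were 36 and 25, and the median of the members stayed at 0.37 with 0 called. The deviations of same-numbered libraries correlated by 0.09, 0.20 and 0.09 across genes, each library best with its own number, which is a hint from the data and not from the design.

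Turned directions were −0.0022 for Lag3 with a pseudocount of 0.1, 0.021 for Ubash3a with quantile normalization and 0.051 with an equal sum per library, and −0.13 for Tcf7, −0.15 for Ctla4 and −0.066 for Lag3 with array weights. Among the libraries with Y-linked transcripts the values were −0.058 for Lck, −0.28 for Tcf7, −0.11 for Cd247, −0.10 for Cd96, −0.33 for Ctla4, −0.051 for Zap70, −0.40 for Lag3, −0.13 for Cd27, −0.14 for Thy1 and −0.29 for Skap1. With 1 library left out, values ran from −0.21 to 0.30 for Tcf7, −0.15 to 0.22 for Ctla4, −0.31 to 0.26 for Lag3, −0.49 to 0.17 for Sh2d1a, −0.31 to 0.22 for Ubash3a, −0.44 to 0.19 for Cd2, −0.39 to 0.044 for Lef1, −0.0011 to 0.59 for Lck, −0.039 to 0.44 for Zap70, −0.14 to 0.83 for Pdcd1, −0.14 to 0.45 for Cd27, −0.13 to 0.54 for Thy1 and −0.17 to 0.41 for Skap1. The cause of these changes was not tested.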

Other observations

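Transcripts of gamma-delta and innate-like T cells were low in every library. Trdc, the constant region gene of the delta chain, was at 0.317, 0.499 and 0.527 FPKM in the WT libraries, against 0.497, 0.0907 and 0.392 FPKM in the knockout-labelled libraries. Tcrg-C1, of the gamma chain, was listed at 0, 0.181 and 0.456 FPKM and at 0.675, 0.867 and 1.15 FPKM, so that the groups did not overlap. Il17a, the cytokine gene of such cells and of helper T cells of the TH17 type, was listed at 0 in 1 WT library and reached 0.681 FPKM in knockout-labelled replicate 1. Of the 6 genes of this list 1 was tested, Zbtb16, which encodes the transcription factor PLZF and NK cells express too (log2 difference −0.64, limma adjusted p = 0.37).

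Cxcr6, a chemokine receptor of effector and tissue-resident T cells named for its values rather than by rule, was at 1.43, 1.42 and 1.90 FPKM in the WT libraries, against 9.10, 4.86 and 2.55 FPKM in the knockout-labelled libraries. All 3 of the latter lay above the WT libraries, and the log2 difference of 1.21 (standard error 0.34, limma adjusted p = 0.20) was 0.83 without knockout-labelled replicate 1. Genes of dividing cells were also highest in knockout-labelled replicate 1, in 3 of 3 listed, with Mki67 at 10.5 FPKM there and at 4.83 to 8.07 FPKM in the other 5 libraries. Gzmb, the granzyme gene of activated cytotoxic T and NK cells, was at 59.8 FPKM in that library and at 14.0 to 27.0 FPKM in the others. Gzma, which NK cells hold in abundance, was highest in WT replicate 3 at 89.8 FPKM. Of the 12 NK cell genes, 4 were highest in knockout-labelled replicate 1, Gzmb among them. The part of NK cells in the level of Gzmb was not tested. The plasmacytoid dendritic cell list (6 genes) had 0 called and a median log2 difference of −0.11, and the epithelial list (3 of 5 tested) 0 called and 0.10. The neutrophil list (6 genes) had 5 called lower, where 0.482% of all genes tested were.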
